A study of Mus musculus with 18 samples.

Results

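The 9 genes described here encode transcription factors of the AP-1 group: Fos, Fosb, Fosl1, Fosl2, Jun, Junb, Jund, Atf3 and Batf3. They were picked by family from the 46078 genes of the RNA-seq table, because the sequence that AP-1 binds was frequent in chromatin that opened in the mutant tumors. The values that selected them were therefore the ATAC-seq changes of the mutants against TKO tumors, and those changes are given below as a description, with no test. The RNA levels of the 9 genes did not enter the choice, but earlier results of these data were known when it was made. Of the 111664 ATAC-seq peaks, 158 lay within 50000 bp of 1 of the 9 genes.

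AP-1 is a dimer of basic leucine zipper (bZIP) proteins. JUN proteins pair with each other, with FOS proteins or with ATF and BATF proteins, whereas FOS proteins need a partner from another family. FOS, FOSB, JUN, JUNB and ATF3 are products of immediate-early genes, which are transcribed briefly after growth factors or stress, while FOSL1 and FOSL2 lack the strong transactivation domain of FOS and are typical of mesenchymal, migrating and wound-edge cells. Neuroendocrine cells of the lung are the usual origin of small cell lung cancer (SCLC), a tumor of rounded cells that express neuronal genes.

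TKO mice carried floxed alleles of Rb1, Trp53 and a further retinoblastoma family gene (Rbl1 in the labels, and both Rbl1 and Rbl2 in the study's text), and all 3 genotypes shared them. The CARM1 knockout animals had a floxed Carm1 gene in addition, which encodes an arginine methyltransferase. The NFIB mutant animals carried the R388K allele of Nfib, which replaces the arginine that CARM1 methylates. Adenovirus expressing Cre was instilled into the lungs at 8 weeks of age, without a cell type restriction stated for its promoter, and cells were isolated 28 weeks later. The study sorted them for a Cre-activated tdTomato reporter, although its account of the ATAC-seq also speaks of cell lines. Each genotype gave 3 RNA-seq and 3 ATAC-seq libraries, from 3 animals by the labels, and the comparison asks what the loss of CARM1 or of its site on NFIB does to tumor gene expression.

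Between 15848866 and 20915057 reads per RNA-seq library fell on genes, and 26917178 to 47653979 reads per ATAC-seq library on peaks. Levels are in CPM, the count scaled to library size, and 3 counts correspond to 0.143 to 0.189 CPM in RNA-seq, a limit for counting error only. Carm1, the targeted gene, had 97.7, 103 and 44.5 CPM in TKO, 63.4, 79.1 and 50.8 CPM in the CARM1 knockout and 100, 104 and 102 CPM in NFIB mutants, so its level over the whole gene overlapped between TKO and CARM1 knockout libraries. Such a count also takes in reads from exons outside the floxed part, and it does not check the labels. RNA of Nfib was lower in every mutant library than in TKO. It had 420, 580 and 571 CPM in TKO, 74.5, 216 and 87.2 CPM in the CARM1 knockout and 105, 83.3 and 91.4 CPM in NFIB mutants. The libraries did not carry the same cell type markers. Together, 12 neuroendocrine genes summed to 1654 to 2839 CPM in TKO, 34 to 51.0 CPM in NFIB mutant, and 59.3, 189 and 1984 CPM in CARM1 knockout libraries, so that the third CARM1 knockout library stood with TKO. The label of SCLC cells thus held by these markers for TKO, and did not for the NFIB mutant libraries or for CARM1 knockout replicates 1 and 2. In those 2 replicates 10 and 5 of the 12 genes had at most 3 counts. The summed level of 6 fibroblast genes was 16.6 to 65.3 CPM in TKO, against 14817 to 26686 CPM in the CARM1 knockout and 10087 to 16105 CPM in NFIB mutants, and the collagen genes Col1a1, Col1a2 and Col3a1 led it. The 12 leukocyte genes summed to 4.21 to 55.2, 182 to 2676 and 28.6 to 588 CPM in the same order. The 10 lung epithelial genes ranged from 283 to 635, 3.59 to 880 and 3.49 to 2806 CPM, and the 6 endothelial genes reached at most 17.4 CPM in a library. Neuroendocrine genes called lower were 3 of 12 in the CARM1 knockout and 11 of 12 in the NFIB mutant tumors, and none was higher. All 6 fibroblast genes were called higher in both, leukocyte genes 8 and 3 of 9 tested, epithelial genes 0 and 4 of 9 tested with 1 lower in each, and endothelial genes 1 and 1 of 4 tested with 0 and 1 lower. The part of these markers in the results below was not tested. In such bulk samples fewer cells of a type and less RNA per cell cannot be told apart.

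The DNA sites are shown first, because they are the reason for the choice of genes. An AP-1 site is written TGANTCA, which reads the same on both strands. For each gene the peak with the largest change called alike in both mutants was taken. The 5 of these 9 peaks that held a site anywhere are represented by 61 bases around the site nearest to their middle, on the plus strand of GRCm38. Over whole peaks, 64.1% of all peaks higher in both mutants and 22.8% of those lower in both held a site. In the middle 300 bp, the measure used below, the Fosl2 and Jun peaks held a site, and those of Fosl1, Jund and Atf3 held none. Capitals mark the site.
Fosl1, chr19:5445967-5446027: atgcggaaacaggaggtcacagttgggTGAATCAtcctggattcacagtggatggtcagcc
Fosl2, chr5:32196046-32196106: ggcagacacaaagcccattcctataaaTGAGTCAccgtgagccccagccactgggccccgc
Jun, chr4:95094761-95094821: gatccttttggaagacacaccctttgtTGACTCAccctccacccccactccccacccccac
Jund, chr8:70682304-70682364: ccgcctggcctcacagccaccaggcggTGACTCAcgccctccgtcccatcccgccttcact
Atf3, chr1:191268573-191268633: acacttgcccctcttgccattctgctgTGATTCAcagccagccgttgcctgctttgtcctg
The Fosl2, Jun and Jund stretches held the TGACTCA form (TGAGTCA read from the other strand), and the Fosl1 and Atf3 stretches held the form with A or T in the middle. The corresponding peaks of Fos, Fosb, Junb and Batf3 held no such site.

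Among all 111116 peaks tested, 41.7% of the 38894 peaks called higher in both mutants had an AP-1 site in their middle 300 bp, against 7.88% of the 34171 called lower in both and 16.3% of the 23790 called in neither. The form TGACTCA alone gave 33.8%, 4.76% and 12.6%. By contrast TGACGTCA, the cAMP response element that ATF and CREB proteins prefer, was in 0.468% of the peaks higher in both and 0.468% of those lower in both. These peaks had similar lengths, with medians of 806 and 820 bp.

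The site was more frequent away from promoters, among all peaks tested as well as among those that opened. Among peaks higher in both mutants it was in 27.6% of those at promoters, 40.1% of those in exons, 42.2% of those in introns and 45.0% of those between genes. Peaks with more sites were more often open in the mutants. Of the 84658 peaks without a site 26.8% were higher in both mutants, of the 22388 with exactly 1 site 58.8%, of the 3668 with 2 sites 74.8%, and of the 402 with 3 or more 80.1%. The shares lower in both fell from 37.2% without a site to 0.746% with 3 or more. No test was run on these shares, since they led to the choice of the genes.

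**Figure D1:**
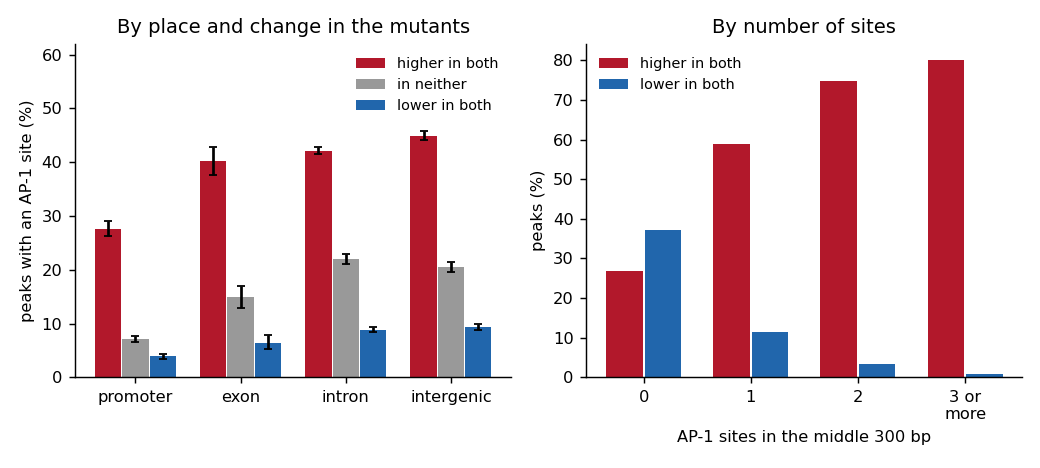
AP-1 sites in ATAC-seq peaks. Left, percentage of peaks with TGANTCA in their middle 300 bp by place of the peak (bars, with 95% Wilson intervals, which cover counting error only), for peaks called higher in both mutants, in neither and lower in both. Right, percentage of peaks called higher or lower in both mutants by the number of sites. The share higher in both climbs from 26.8% without a site to 80.1% with 3 or more.

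RNA of the AP-1 genes was then compared between genotypes. Fosl1, Fosl2 and Junb rose in both mutants, by 5.90 to 35.1-fold, and Jun and Jund rose in NFIB mutant tumors by 2.94-fold and 1.77-fold. None of the 9 genes fell. Fos, Fosb, Atf3 and Batf3 were not called in either mutant. A call required an adjusted p below 0.1 in edgeR's quasi-likelihood test and a log2 fold change of 0.8 or more in either direction. By this rule 3 of 9 genes were called higher in CARM1 knockout tumors, beside 20.5% of all genes tested, and 5 of 9 in NFIB mutant tumors, beside 22.3%. Called lower were 0 of 9 in each, beside 18.3 and 23.5% of all genes. With both mutants against TKO in 1 contrast, 4 of 9 were called higher (22.3% of all genes) and 0 lower (24.7% of all genes). Every library of both mutants lay above every TKO library for 4 of the 9 genes (Fosl1, Fosl2, Junb and Jund), a pattern shown by 22.3% of all genes. All these comparisons share the same 3 TKO libraries.

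Fosl1 (ENSMUSG00000024912, chromosome 19 from 5447547 to 5455946) encodes FRA1. Its level was 6.2, 4.37 and 1.06 CPM in TKO, 100, 83.0 and 36.9 CPM in the CARM1 knockout and 137, 170 and 101 CPM in NFIB mutants. All 6 mutant libraries were far above the TKO libraries, and the lowest of them was the CARM1 knockout library with neuroendocrine markers. The log2 fold change was 4.24 (standard error 0.68, adjusted p = 0.00378) in CARM1 knockout tumors and 5.14 (standard error 0.71, adjusted p = 0.00173) in NFIB mutant tumors. Ordered by log2 fold change, it came at place 1086 of the 15514 genes tested after loss of CARM1 and at place 795 in NFIB mutant tumors.

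Fosl2 (ENSMUSG00000029135, chromosome 5 from 32135801 to 32157842) encodes FRA2. It had 29.0, 23.7 and 48.7 CPM in TKO, 360, 392 and 261 CPM in the CARM1 knockout and 317, 446 and 110 CPM in NFIB mutants. The groups did not overlap, but the third NFIB mutant library stood well below the other mutant libraries. It changed on the log2 scale by 3.32 (standard error 0.54, adjusted p = 0.00388) and 3.10 (standard error 0.53, adjusted p = 0.00372).

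Among the JUN family, Junb (ENSMUSG00000052837, chromosome 8 from 84974484 to 84978718), whose product has a weaker transactivating function than JUN, changed most. Its level was 43.5, 42.9 and 16.6 CPM in TKO, 194, 261 and 168 CPM in the CARM1 knockout and 223, 201 and 185 CPM in NFIB mutants. The mutant libraries were tightly grouped, without overlap with TKO. It changed on the log2 scale by 2.60 (standard error 0.37, adjusted p = 0.00260) and 2.56 (standard error 0.37, adjusted p = 0.00205).

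Jun (ENSMUSG00000052684, chromosome 4 from 95049034 to 95052222), the founding member of the family, had 80.5, 47.7 and 95 CPM in TKO, 140, 125 and 93.1 CPM in the CARM1 knockout and 263, 237 and 155 CPM in NFIB mutants. The NFIB mutant libraries all exceeded TKO, whereas 1 CARM1 knockout library overlapped with TKO. The log2 fold change was 1.55 (standard error 0.31, adjusted p = 0.00689) in NFIB mutant tumors and 0.68 (standard error 0.31, adjusted p = 0.116) in CARM1 knockout tumors. The latter passed the threshold without TKO replicate 3 (0.94, adjusted p = 0.0705) and without CARM1 knockout replicate 3 (0.88, adjusted p = 0.0839), within a range of 0.0705 to 0.359 over 17 alternatives.

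Jund (ENSMUSG00000071076, chromosome 8 from 70698949 to 70700616), a broadly expressed gene without introns, had 127, 89.4 and 105 CPM in TKO, 127, 162 and 159 CPM in the CARM1 knockout and 193, 205 and 173 CPM in NFIB mutants. The lowest mutant library was within 1 CPM of the highest TKO library. The log2 fold change of 0.83 (standard error 0.18, adjusted p = 0.00873) in NFIB mutant tumors lay just over the fold limit, and it lost the call without TKO replicate 2 (0.71) or NFIB mutant replicate 2 (0.78). In CARM1 knockout tumors it was 0.48 (adjusted p = 0.0680), below the limit.

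**Figure D2:**
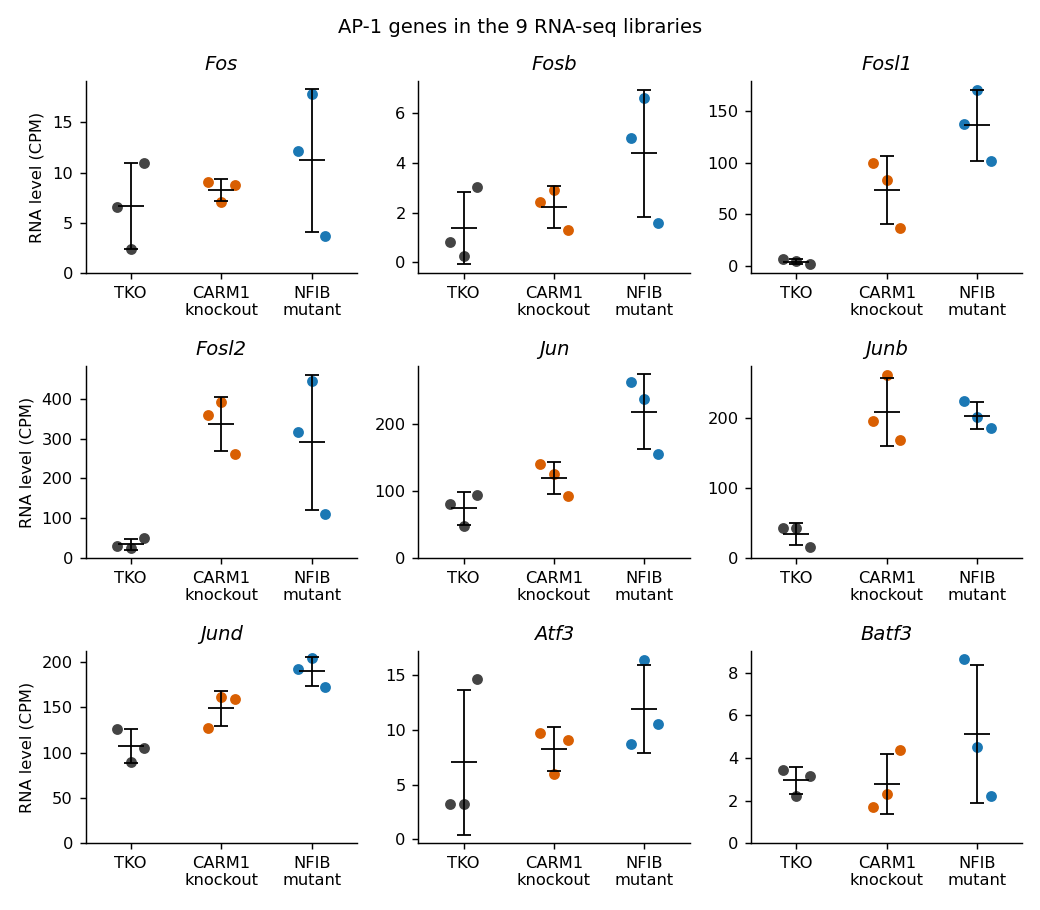
RNA level of the 9 AP-1 genes in CPM on a linear axis for each library (points), with mean and SD (n = 3) per genotype. Fosl1, Fosl2 and Junb separate the mutants from TKO, while Fos, Fosb, Atf3 and Batf3 overlap.

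The other 4 genes were not called in either mutant. Fos (ENSMUSG00000021250, chromosome 12 from 85473890 to 85477273) had 6.63, 2.45 and 11 CPM in TKO, 9.08, 7.06 and 8.76 CPM in the CARM1 knockout and 12.2, 17.8 and 3.68 CPM in NFIB mutants. Against TKO the log2 fold change was 0.31 (standard error 0.67, adjusted p = 0.736) and then 0.75 (standard error 0.67, adjusted p = 0.390). Only 2 of the 6 mutant libraries exceeded the highest TKO library.

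Fosb (ENSMUSG00000003545, chromosome 7 from 19302696 to 19310051), a close relative of Fos, was the lowest gene, with 0.817, 0.262 and 3.01 CPM in TKO, 2.44, 2.92 and 1.29 CPM in the CARM1 knockout and 4.98, 6.60 and 1.59 CPM in NFIB mutants. Atf3 (ENSMUSG00000026628, chromosome 1 from 191170296 to 191218039), a stress-induced factor that can repress transcription, had 3.22, 3.24 and 14.7 CPM, 9.69, 5.95 and 9.10 CPM, and 8.69, 16.4 and 10.5 CPM in the same order. In both genes TKO replicate 3 was the high library of its group. Without it the log2 fold change of Atf3 went from 0.23 (adjusted p = 0.80) to 1.39 (adjusted p = 0.0481) in CARM1 knockout tumors and from 0.75 (adjusted p = 0.364) to 1.91 (adjusted p = 0.0161) in NFIB mutant tumors. That of Fosb went from 1.68 (adjusted p = 0.169) to 3.04 (adjusted p = 0.0369) in NFIB mutant tumors, and from 0.70 (adjusted p = 0.569) to 2.07 (adjusted p = 0.110) in CARM1 knockout tumors. Whether Atf3 was called in either mutant, and Fosb in NFIB mutant tumors, thus depended on 1 TKO library. Over all alternatives the adjusted p of Atf3 ranged from 0.0481 to 0.946 and from 0.0161 to 0.654. That of Fosb in NFIB mutant tumors ranged from 0.0369 to 0.363.

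Batf3 (ENSMUSG00000026630, chromosome 1 from 191097847 to 191108945), known for its role in dendritic cells, had 3.46, 2.23 and 3.15 CPM in TKO, 1.69, 2.33 and 4.38 CPM in the CARM1 knockout and 8.63, 4.50 and 2.22 CPM in NFIB mutants. The groups overlapped, and the log2 fold changes were -0.07 (adjusted p = 0.938) and 0.80 (adjusted p = 0.317).

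**Figure D3:**
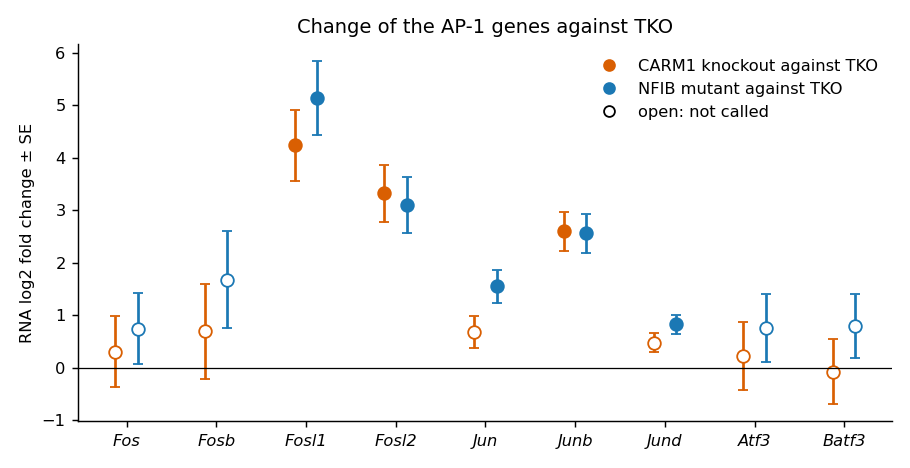
Log2 fold change of RNA against TKO with its standard error for the 9 AP-1 genes in the CARM1 knockout and NFIB mutant tumors, from 3 libraries per genotype. Filled points passed the test and the fold limit. Fosl1 stands highest in both mutants, with 4.24 and 5.14.

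The mutants were also compared with each other. None of the 9 genes was called, nor was any of the 15514 genes tested (0%), with 1414 at an unadjusted p under 0.05, whereas DESeq2 called 317 genes higher and 223 lower but none of the 9. The largest differences of CARM1 knockout against NFIB mutant tumors were -0.98 (standard error 0.91) for Fosb, -0.90 (standard error 0.59, adjusted p = 0.696) for Fosl1 and -0.87 (standard error 0.31, adjusted p = 0.526) for Jun. Those of Junb and Fosl2 were 0.04 (standard error 0.35) and 0.22 (standard error 0.49). That a gene such as Jun passed the test in 1 mutant and not in the other was therefore not shown to be a difference between them.

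Levels of different genes were compared per kilobase of exon (RPKM). In TKO tumors Jund came first with 64.2 ± 11.2 RPKM (SD, n = 3), above Jun with 23.3 ± 7.60 and Junb with 14.9 ± 6.67, whose ranges overlapped. All other members were lower, in the order Fosl2 (3.49), Atf3 (3.27), Fos (2.84), Fosl1 (1.91), Batf3 (1.84) and Fosb (0.219), and neighbours in this order overlapped except Batf3 and Fosb. In CARM1 knockout tumors Junb with 90.3 ± 20.7 and Jund with 89.5 ± 11.7 RPKM led and overlapped. They were followed by Jun (37.5), Fosl1 (36.1) and Fosl2 (34.9), which overlapped with each other. Atf3, Fos, Batf3 and Fosb stayed at 3.83, 3.53, 1.76 and 0.355 RPKM, below the lowest library of Fosl1 at 18.1 RPKM. In NFIB mutant tumors the order was Jund (114), Junb (88.1), Jun (68.5), Fosl1 (67.1), Fosl2 (30.0), Atf3 (5.51), Fos (4.77), Batf3 (3.21) and Fosb (0.703), where Jund and Junb did not overlap, nor did Fosl1 and Fosl2, Fosl2 and Atf3, or Batf3 and Fosb.

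The make-up of the FOS family differed accordingly. The 4 FOS genes together reached 8.46 ± 2.55 RPKM in TKO, 74.8 ± 22.5 in the CARM1 knockout and 103 ± 37.9 in the NFIB mutant tumors, and the 3 JUN genes 102 ± 16.6, 217 ± 28.2 and 271 ± 33.4 RPKM. Fos itself made up 31.1% of the FOS family in TKO, 5.13% in the CARM1 knockout and 4.27% in the NFIB mutant tumors. Fosl1 made up 25.5, 46.5 and 67.7%, and Fosl2 41.1, 47.9 and 27.3%. For both genes the shares of TKO and CARM1 knockout libraries overlapped. Those of Fosl1 were 4.89 to 37.9% and 37.0 to 54.3%, and those of Fosl2 33.3 to 47.0% and 41.0 to 55.0%. Within the JUN family Jund fell from a share of 62.6% in TKO to 41.4 and 42.3%, and Junb was at 14.8, 41.2 and 32.7%.

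Chromatin near the genes was then described. After loss of CARM1, 65 of the 158 peaks stood higher and 27 lower by the call, 41.1 and 17.1% of them, beside 38.7% and 32.4% of all 111116 peaks tested. In NFIB mutant tumors 70 were higher and 31 lower, 44.3 and 19.6%, beside 39.3% and 34% of all peaks. With scaling by totals the counts were 86 higher and 15 lower, and 95 and 15, beside 47.3 and 24.5%, and 47.4 and 26.3%, of all peaks. With scaling on uniform start sites they were 75 and 15, and 86 and 17, beside 43.4 and 27.1%, and 44.9 and 27.8%. With both mutants against TKO in 1 contrast, 71 were higher and 33 lower, beside 41% and 34.9% of all peaks. For peaks a call required an adjusted p below 0.1 and a log2 fold change of 0.5 or more in either direction. Between the mutants no peak was called, near these genes or among all peaks tested (0%), and 6 of the 158 had an unadjusted p under 0.05, among them 3 near Jun. DESeq2 called 1 of the 158 there, and 1060 of 111664 peaks in all.

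Of all 111116 peaks tested, 38894 (35%) were called higher in both mutants and 34171 (30.8%) lower in both, and the counts near each gene are read beside these shares. Around Fosl2 16 of 19 peaks were called higher in both mutants and none lower in both, with median log2 fold changes of 1.92 and 1.93. Around Fosl1 12 of 21 and around Jun 8 of 15 were higher in both, and 0 and 1 lower. Around Junb, by contrast, 4 of 21 were higher and 8 lower in both, and around Jund 2 of 20 were higher and 6 lower. RNA of Junb was called higher in both mutants, and that of Jund in NFIB mutant tumors only. Fos had 4 of 13 higher and 1 lower, Fosb 4 and 4 of 23, Atf3 9 and 4 of 22, and Batf3 4 and 1 of 9. Atf3 and Batf3 are neighbours on chromosome 1 and share 5 peaks, and several windows hold other genes, so a peak is not tied to the member by its place.

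The start site peak of a gene is the one with most reads within 1000 bp of a start. Of these 9 peaks only those of Fosl1 and Fosl2 were called, but the values depended on the scaling of the ATAC-seq libraries. A weaker peak 845 bp from another annotated start of Atf3 (chromosome 1 from 191215845 to 191217194) was called higher in both mutants. It went from 1.38 to 10.8 and 14.1 CPM, with log2 fold changes of 2.98 and 3.36. The peak at Jun (chromosome 4 from 95049734 to 95054566) measured 122 ± 11.4 CPM (SD, n = 3) in TKO, 113 ± 15.7 in the CARM1 knockout and 108 ± 23.9 in the NFIB mutant tumors. That at Junb (chromosome 8 from 84973657 to 84982671) had 135 ± 30.6, 164 ± 9.74 and 145 ± 22.2 CPM, and that at Fos (chromosome 12 from 85471669 to 85476784) 67.2 ± 14.9, 56.3 ± 5.47 and 60.6 ± 18.6 CPM. The start site peaks of Fos, Fosb, Jun, Junb, Jund, Atf3 and Batf3 were called in neither mutant, with log2 fold changes between -0.28 and 0.28. Those of Fosl1 and Fosl2 were called higher in both mutants, as were 3901 of the 22061 promoter peaks tested. Promoter peaks have their middle within 1000 bp of a start, which the peaks of Fosl1, Fosl2 and Fosb did not. Other scalings of these peaks were added after seeing the data. With scaling by library totals, which moves the median of all peaks by 0.57 in both comparisons, Jun stood at 0.45 and 0.39 and Fos at 0.30 and 0.39, in the opposite direction and not called, while Fosb (0.70 and 0.76), Junb (0.87 and 0.69), Jund (0.60 and 0.53) and Atf3 (0.81 and 0.75) were called higher. With scaling on uniform start sites, which moves it by 0.34 and 0.42, Jun was at 0.22 and 0.22, and Junb (0.63 and 0.51) and Atf3 (0.56 and 0.58) were called higher in both mutants, Fosb (0.62) in NFIB mutant tumors. Fosl1 was called in both mutants under each scaling and by DESeq2, whereas Fosl2 was not called by DESeq2 (0.51 and 0.38), nor in NFIB mutant tumors with size factors (0.38).

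At Fosl1 the start site peak (chromosome 19 from 5447195 to 5452603, with its middle in the gene's intron) had 11.4, 9.46 and 6.25 CPM in TKO, 28.9, 32.0 and 35.7 CPM in the CARM1 knockout and 34.5, 39.3 and 43.5 CPM in NFIB mutants, and held 5 AP-1 sites over its whole length. The peak with the largest change lay between genes just upstream, its middle 2438 bp before the start (chromosome 19 from 5444029 to 5446190). It rose from 1.61 ± 0.295 CPM in TKO to 28.0 ± 1.53 and 26.4 ± 3.59 CPM, and its site is the first sequence above. At Fosl2 the start site peak (chromosome 5 from 32132550 to 32136972) had 67.0 ± 16.4, 108 ± 12.6 and 96.6 ± 23.8 CPM. Its log2 fold changes were 0.69 and 0.53, and the second of these was near the limit. Weaker peaks within 1000 bp of a Fosl2 start (chromosome 5 from 32137088 to 32140059 and from 32145361 to 32147339) were also called higher in both mutants. Their log2 fold changes were 1.68 and 1.56 for the former, and 1.73 and 1.53 for the latter. The peak with the largest change lay between genes 49467 bp downstream of the start (chromosome 5 from 32195212 to 32196764), with 0.746 ± 0.123 CPM in TKO and 13.9 ± 4.37 and 14.8 ± 2.80 CPM in the mutants.

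The peak with the largest change near Jun (chromosome 4 from 95094132 to 95095448) lay 42568 bp upstream, in an intron of Junos, a noncoding gene whose start lies at Jun. It had 0.606 ± 0.208 CPM in TKO, 6.63 ± 1.91 in the CARM1 knockout and 10.8 ± 2.52 in the NFIB mutant tumors. Among the others, the largest were rises at 22779 bp from Fos (3.70 to 25.7 and 26.9 CPM), 28530 bp from Fosb (1.40 to 12.2 and 11.3 CPM), 16427 bp from Jund (1.89 to 14.9 and 18.3 CPM), 50202 bp from Atf3 (0.739 to 5.39 and 8.75 CPM) and 40680 bp from Batf3 (0.424 to 3.70 and 1.78 CPM). Near Junb it was a fall, in an exon of Hook2, from 1.86 to 0.350 and 0.262 CPM.

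**Figure D4:**
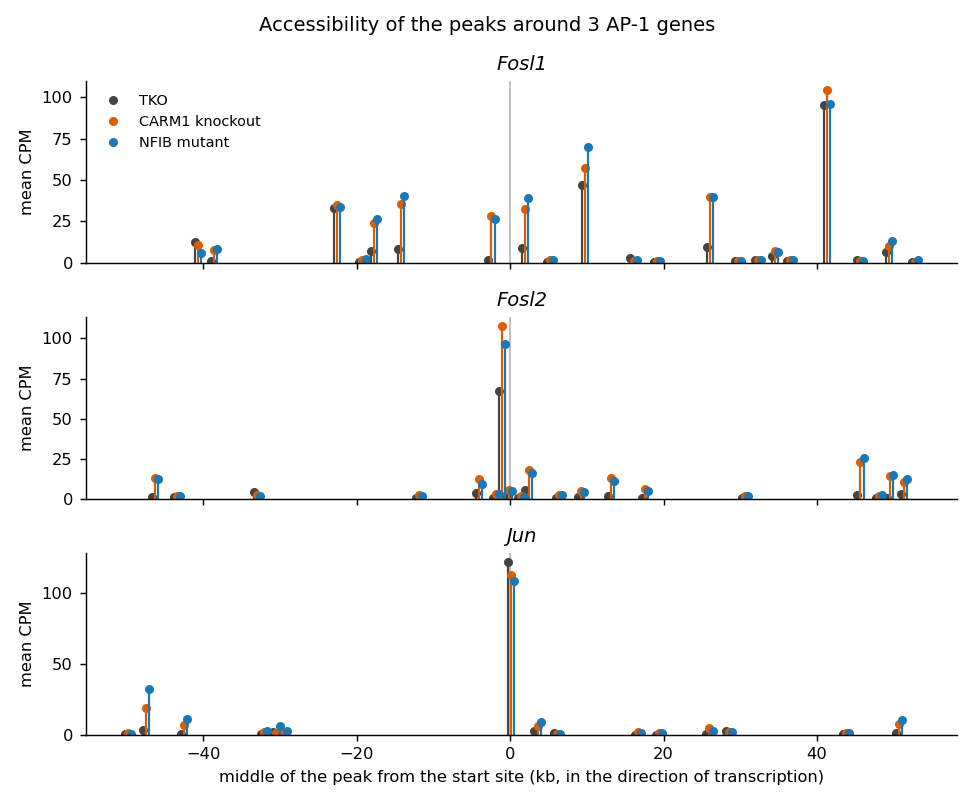
Accessibility around Fosl1, Fosl2 and Jun. Each line is the mean CPM (n = 3) of a peak in 1 genotype at the distance of its middle from the start site in kb, with the 3 genotypes set 0.4 kb apart for view. The peak at the start of Jun had 122, 113 and 108 CPM on this scale.

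The AP-1 site was then counted in these neighbourhoods. Over the whole length of the peak, 43 of the 61 distinct peaks that were higher in both mutants held it, against 7 of the 24 lower in both and 22 of the 50 called in neither. These are 70.5, 29.2 and 44% of them, beside 64.1, 22.8 and 34.8% of all peaks of the same classes. In the middle 300 bp the counts were 22, 3 and 8, or 36.1, 12.5 and 16%, beside 41.7, 7.88 and 16.3% of all peaks, so the shares near these genes were close to those of all peaks. Of the 16 opened Fosl2 peaks 12 held a site somewhere, of the 12 at Fosl1 7, and of the 8 at Jun 5. Of the 61 opened peaks 28 lay between genes, 20 in introns, 6 in exons and 7 at promoters, and of the 38894 such peaks in all 3901 lay at promoters.

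**Figure D5:**
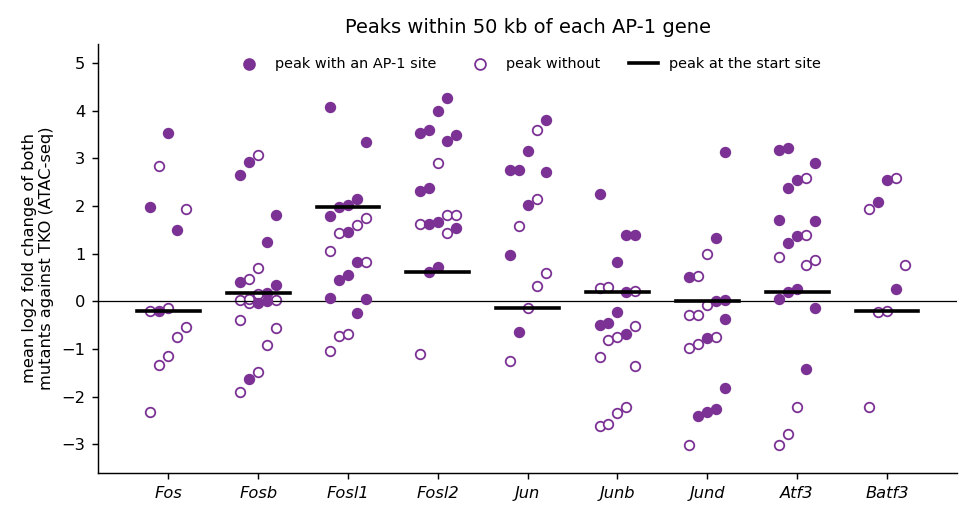
Mean ATAC-seq log2 fold change of the 2 mutants against TKO for each peak within 50 kb of each AP-1 gene (points, spread sideways for view). Filled points hold TGANTCA anywhere in the peak, and the black line is the peak at the start site. At Fosl2 16 of 19 peaks were called higher in both mutants.

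Upstream of the start sites, 8 of the 9 genes had an entry in the RefSeq promoter table (GRCm38.p6). None of the 8 held an exact match to TGANTCA or TGACGTCA in the 250 bases before the start given there. These sequences were found in 6.75% and 1.55% of the 32851 promoters. Variants of them other than TGACATCA, named below, were not searched for in any gene. For Jund the bases before that start ended at position 70697738, upstream of the gene's annotated start at 70698949. The bases just before the annotated start of Jund were thus not searched. Jun held TGACATCA, a known variant of the AP-1 site through which JUN can act on its own gene, which was in 2.93% of promoters on either strand. It is shown as a form of the site before the start of a member, and the start site peak of Jun covers it. The last 120 bases before the start of Jun, on the minus strand, have it in capitals.
Jun, chr4:95052223-95052342: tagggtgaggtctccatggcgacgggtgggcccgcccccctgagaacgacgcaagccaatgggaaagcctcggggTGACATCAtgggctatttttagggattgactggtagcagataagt

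Genes around AP-1 were read from lists made from general knowledge. Earlier results of these data were known when the lists were made, so their counts are descriptions only. Of 24 genes known as AP-1 targets, 21 rose in the CARM1 knockout and 23 in the NFIB mutant tumors, and none fell, beside 20.5% and 22.3% of all genes called higher. Their median log2 fold changes were 5.78 and 6.0, where the median of all genes tested was -0.03 and -0.05. Without TKO replicate 3 the counts were 19 and 21, and without CARM1 knockout replicate 3 they were 21 and 23. Timp1, an inhibitor of matrix proteases, went from 0.734 ± 0.618 CPM (SD, n = 3) in TKO to 351 ± 152 and 399 ± 336 CPM. The stromelysin gene Mmp10 went from 0.408 ± 0.175 to 64.8 ± 77.9 and 153 ± 144 CPM, and the cytokine gene Il6, at most 2 counts in a TKO library, had 63.3 ± 82.8 and 60.4 ± 86.5 CPM. Mmp12, a protease of macrophages, was called in neither, with 493 ± 428 CPM in the CARM1 knockout and 5.08 ± 7.73 CPM in the NFIB mutant tumors. The 6 fibroblast markers, all called higher in both mutants, moved in the same libraries, and several listed targets such as Vim, Lox and Tnc are also transcribed in fibroblasts.

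Among 20 immediate-early genes outside AP-1, after loss of CARM1 10 were called higher and 1 lower, and 12 and 2 in NFIB mutant tumors, with medians of 2.07 and 2.35, beside 20.5% higher and 18.3% lower, and 22.3% and 23.5%, of all genes. Ccn1, Ccn2 and Ier3 changed most. Ccn1, a matrix-associated signaling protein, went from 4.87 to 382 and 333 CPM, and Egr1, a zinc finger factor usually induced together with Fos, from 12.3 to 78.4 and 62.3 CPM (log2 fold changes 2.67 and 2.34, adjusted p = 0.00922 and 0.0116). Btg2, an antiproliferative gene, was lower in both (-1.26 and -1.16, adjusted p = 0.0428 and 0.0478), but without TKO replicate 3 it was called in neither (adjusted p = 0.103 and 0.116), and the call in 1 mutant was also lost without TKO replicate 2, CARM1 knockout replicate 2, or NFIB mutant replicate 2 or 3 (adjusted p = 0.104, 0.119, 0.130 and 0.125). Of 7 genes for serum response factor and its partners, which act on the Fos promoter, Srf, Elk3 and Mrtfa were higher in both mutants, 3 were called in neither and Myocd was too low to test. Srf itself went from 57.3 to 117 and 103 CPM.

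The lists that follow are set beside the same shares of all genes, 20.5% higher and 18.3% lower after loss of CARM1, and 22.3% and 23.5% in NFIB mutant tumors. Of 18 bZIP partners, 6 rose (Batf, Batf2, Jdp2, Mafk, Nfe2l1 and Nfe2l2) and 2 fell (Atf2 and Bach2) after loss of CARM1, and 6 rose (Maff in place of Batf) and 1 fell (Atf2) in NFIB mutant tumors, with medians of 0.35 and 0.44. Jdp2, whose product dimerizes with JUN and represses AP-1 targets, went from 13.8 to 47.4 and 42.0 CPM (log2 fold changes 1.78 and 1.6, adjusted p = 0.00278 and 0.00303). Atf2, another partner of JUN, fell from 113 to 48.7 and 52.0 CPM (-1.21 and -1.11, adjusted p = 0.0215 and 0.0239). Mafk and Nfe2l2, which encode partners in the antioxidant response, were higher, with log2 fold changes of 2.15 and 2.20, and of 2.38 and 3.09. Batf2 was at most 1 count in a TKO library and reached 0.951 and 1.22 CPM.

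Kinases that act on AP-1 were called at rates near those of all genes. Of 18, after loss of CARM1 5 were called higher and 4 lower, and 4 and 5 in NFIB mutant tumors, with medians of -0.03 and 0.11. The p38 gene Mapk13 and the upstream kinase Map2k3 were higher, while Map3k1 and Mapk8, which encodes JNK1, were lower, the latter from 81.4 to 33.9 and 25.1 CPM. Of 12 phosphatases and feedback inhibitors of these kinases, 6 and 7 were higher and 1 and 2 lower. Dusp6, a phosphatase of ERK, went from 8.51 to 69.3 and 59.2 CPM (log2 fold changes 3.02 and 2.80, adjusted p = 0.00446 and 0.00460), and Spry2 and Dusp5 were higher too, the list having medians of 1.12 and 1.97. Between the mutants no listed gene was called.

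Within genotypes, the members did not vary as 1 group. After the mean of each genotype was subtracted, log2 CPM over the 9 libraries gave Pearson's r of 0.92 between Fosb and Jun, 0.88 between Fos and Fosb and 0.89 between Fosl1 and Junb, but -0.93 between Junb and Atf3. TKO replicate 3 had the lowest Fosl1 and Junb of its group, 1.06 and 16.6 CPM, and the highest Atf3, 14.7 CPM. The part of that library in the values 0.89 and -0.93 was not tested. Outside the family, the most alike genes were Pxdc1, Ier3 and Ripk3 for Fosl1 (r up to 0.98), Snapc1, A530083I20Rik and Bcl6b for Fosl2 (0.99), Chd8, Rexo4 and Snord55 for Junb (0.99), AI504432, Kcna3 and Gm26691 for Jun (0.97) and Adamts8, Trpt1 and Tube1 for Jund (0.97). For Fos they were Eml2, Tonsl and Prss36 (0.98), for Fosb Slc7a2, Fam241a and Gm10516 (0.98), for Atf3 BC031181, Tmem41b and Hfe (0.99) and for Batf3 Krtcap3, Fcho1 and 4921507P07Rik (0.98). These are the highest of 15514 genes over points that share 9 libraries and their scaling, and they are descriptions only.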

How the data were processed

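RNA-seq and ATAC-seq libraries of TKO, CARM1 knockout and NFIB mutant tumors were used, 3 per genotype and assay. The authors deposited unnormalized counts of reads per gene (htseq-count) and on 1 merged set of peaks (featureCounts 1.6.3 per the file header), on GRCm38, after trimming and mapping, with duplicates and copy number altered regions removed for ATAC-seq by the study's methods. The 5 summary entries of the gene table stayed out of library sizes; reads outside genes were 10.0 to 12.2% in TKO and 3.65 to 5.17% in the mutants, and ambiguous reads 3.84 to 4.50%. The column prefixes C, KO and N stand for TKO, CARM1 knockout and NFIB mutant. Genes were named with GENCODE vM21, and 45143 of 46078 matched.

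Counts were fitted in R 4.3.3 with edgeR 4.0.16 (TMM, filterByExpr, robust quasi-likelihood test, Benjamini-Hochberg) in 1 model of 9 libraries per assay, over 15514 genes and 111116 peaks. DESeq2 1.42.0 was an alternative. The standard error is the absolute log2 fold change divided by the square root of the F statistic. RPKM used the union of exons. Sites were counted in Python 3.11.15 with pysam 0.24.0 on RefSeq's GRCm38.p6 sequence. Scripts were tested on simulated data.

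The 9 genes and all lists were chosen with earlier results of these data known. All members are named. Peaks named are, per member, the one at a start (within 1000 bp) with most reads and the one with the largest mean change among those called alike in both mutants with at least 1 CPM in the higher genotype. List genes named are up to 3 with the largest mean change called alike in both mutants, with no overlap with TKO, and any direct partner of a member; Vim, Lox, Tnc, Mmp12, Egr1, Btg2, Mapk8, Myocd and some markers were named after their values were seen. The replicate numbers did not pair the libraries: correlations of same-numbered libraries ran from -0.30 to 0.12 in RNA-seq and -0.14 to 0.12 in ATAC-seq.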

Additional observations from a re-analysis of the deposited data

How the results depend on the processing

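Fosl1, Fosl2 and Junb kept their calls against TKO under all 17 alternatives, with log2 fold changes of 3.83 to 4.78 and 4.72 to 5.66 (Fosl1), 3.03 to 3.72 and 2.67 to 3.50 (Fosl2) and 2.30 to 2.83 and 2.25 to 2.78 (Junb). Jund in NFIB mutant tumors was not called with scaling by totals (0.49) or with at least 10 counts in every library (0.76). Scaling by totals moved the median of all genes by -0.27 and -0.33 and the share of higher among called genes from 52.9 and 48.7% to 39.4 and 35.8%, and in ATAC-seq the median by 0.57 and 0.57 and the share from 54.4 and 53.6% to 65.9 and 64.3%. The cause was not tested. Without 1 library each in turn, members called higher were 3 to 5 in CARM1 knockout tumors, 5 only without TKO replicate 3. In NFIB mutant tumors the calls moved both ways. Jund lost its call without TKO replicate 2 (0.71) or NFIB mutant replicate 2, and Atf3 (1.91) and Fosb (3.04) were called without TKO replicate 3. Of the peaks near the genes, 86 and 95 were higher and 15 and 15 lower with scaling by totals, 75 and 86 higher and 15 and 17 lower with scaling by uniform start sites, and within 10000 bp 20 and 21 were higher and 8 and 8 lower. DESeq2 called 1 peak lower between the mutants. Among peaks higher in both mutants, in neither and lower in both, the share that held a site was 33.8, 12.6 and 4.76% for TGACTCA, 64.1, 34.8 and 22.8% over the whole peak, 38.8 and 12.1% for the first and second class with scaling by totals, and 34.6, 12.7 and 7.33% with at least 10 counts in every library. Values that were not called changed sign: Atf3 in CARM1 knockout tumors with scaling by totals (-0.064), and without 1 library Fos (-0.085 to 0.91), Atf3 (-0.11 to 1.39) and Batf3 (-0.50 to 0.20) in CARM1 knockout tumors, and Fos (-0.85 to 0.066), Fosl2 (-0.18 to 0.66) and Junb (-0.16 to 0.19) between the mutants. Of the pathway lists, the counts of lower genes moved without TKO replicate 3 or CARM1 knockout replicate 3, chosen after seeing the data, by at most 2 genes; immediate-early genes lower went from 1 and 2 to 0 and 0 without TKO replicate 3. The replicate block left 3 and 5 members higher; the shared numbers are no pairing.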
